A study of Mus musculus with 17 samples.

Results

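The nuclear genes for the subunits of oxidative phosphorylation were followed through early mouse spermatogenesis in WT and Nat10-SKO mice. Members were the rows of the deposited gene table whose symbols name subunits of complex I (Nduf), complex II (Sdh), complex III (Uqcr), complex IV (Cox4 to Cox8) or complex V (Atp5), which gave 83 of 23282 genes. They comprised 35 members of complex I, 4 of complex II, 8 of complex III, 14 of complex IV and 15 of complex V. The testis variants of complex IV, Cox6b2, Cox7b2 and Cox8c, were kept apart as 3 members. Ndufa4 and its paralogue Ndufa4l2 carry complex I names but are placed with complex IV today, and the name rule also took Atp5s and Atp5sl, which are not subunits of complex V, so these 2 pairs were also counted apart. In all, 79 members had a mean of at least 10 reads per library and were tested among 13530 genes.

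The libraries came from spermatogonia (SPG), preleptotene spermatocytes (PreL) and leptotene and zygotene spermatocytes (LZ) of C57BL/6 mice, sorted by FACS on Hoechst fluorescence. Each genotype had 3 libraries per stage, except that WT LZ had 2. In SKO mice (labelled Stra8-cre_Nat10_KO) Stra8-driven Cre, active in germ cells from before meiosis, inactivates the floxed Nat10 allele (Nat10 fl/-), a gene that encodes an acetyltransferase that writes N4-acetylcytidine on RNA; the WT group is labelled Wildtype. The age of the mice, the number of animals behind a library and whether replicates came from separate animals were not given in the labels, so p-values measure the spread between these libraries.

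The respiratory chain passes electrons from NADH (through complex I) and from succinate (through complex II) to complex III and then to complex IV, which reduces oxygen, and the proton gradient so built drives the ATP synthase, complex V. Each complex other than II joins subunits encoded by the mitochondrial genome with nuclear-encoded ones, some of which form the catalytic core and many of which are small accessory proteins. Several complex IV subunits exist as tissue forms from separate genes, and male germ cells use testis forms of some of them in place of the forms found in other tissues.

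Promoter sequences are shown for the 2 testis variants listed with one, beside their somatic partners, and for Ndufa10, the complex I member with the largest fall in LZ. RefSeq (GRCm38.p6) listed a window of 250 bases before to 50 after the start site for 68 of the 83 members. The 200 bases before the start are given 5′ to 3′ on the strand of the gene, for Cox6b2 (chr7:4753095-4753294, minus strand), Cox6b1 (chr7:30626115-30626314, minus strand), Cox7b2 (chr5:71548206-71548405, minus strand), Cox7b (chrX:106015500-106015699, plus strand) and Ndufa10 (chr1:92473759-92473958, minus strand). Capitals mark matches on either strand to the Sp1 box GGGCGG and to the cAMP response element TGACGTCA; the NRF1, ETS and YY1 motifs described after the sequences have no match in these stretches.
Cox6b2: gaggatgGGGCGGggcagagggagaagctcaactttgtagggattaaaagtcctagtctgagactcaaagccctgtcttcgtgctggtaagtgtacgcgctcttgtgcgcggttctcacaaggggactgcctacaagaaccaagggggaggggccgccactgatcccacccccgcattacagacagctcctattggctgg
Cox6b1: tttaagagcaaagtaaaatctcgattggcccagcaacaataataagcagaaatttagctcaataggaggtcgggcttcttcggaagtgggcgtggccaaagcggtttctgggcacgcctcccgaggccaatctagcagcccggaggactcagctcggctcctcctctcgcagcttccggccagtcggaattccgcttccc
Cox7b2: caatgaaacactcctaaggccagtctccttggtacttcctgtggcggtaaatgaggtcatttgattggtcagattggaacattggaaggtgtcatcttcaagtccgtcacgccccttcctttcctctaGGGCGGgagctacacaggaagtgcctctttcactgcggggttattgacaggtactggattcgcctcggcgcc
Cox7b: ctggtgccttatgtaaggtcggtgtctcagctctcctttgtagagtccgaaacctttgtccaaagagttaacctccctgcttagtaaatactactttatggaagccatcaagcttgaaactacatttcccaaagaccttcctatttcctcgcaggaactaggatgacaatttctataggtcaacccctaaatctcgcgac
Ndufa10: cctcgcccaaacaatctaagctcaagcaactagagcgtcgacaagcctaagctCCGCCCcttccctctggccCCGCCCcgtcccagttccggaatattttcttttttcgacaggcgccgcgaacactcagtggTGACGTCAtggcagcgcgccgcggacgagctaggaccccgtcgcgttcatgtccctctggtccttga

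The 300-base windows of Cox6b2 and Cox7b2 held 10 CG dinucleotides each, those of Cox6b1, Cox7b and Ndufa10 held 17, 5 and 27, against a median of 19 over the 68 members and 13 over the 17492 protein-coding genes listed. Motifs of factors known to act on respiratory genes were searched on both strands, each on its own, with overlapping matches of different motifs allowed. The NRF1 core CGCATGCG lay in 8 member windows (11.8%) and in 2.54% of all windows. The YY1 motif AAGATGGCG lay in 7 (10.3%, against 1.94%), the ETS motif CCGGAAGT in 5 (7.35%, against 5.29%), the cAMP response element in 4 (5.88%, against 2.34%) and the Sp1 box in 27 (39.7%, against 46.3%). A match describes letters only.

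The recovered reads, obtained by dividing each library by the value of 1 read, numbered 9885136 to 13820953 per library, but 5812380 to 7609420 in the SKO LZ libraries, so members are measured with more counting error there. Members took 2.76% to 3.44% of the reads in WT and SKO SPG and PreL and in WT LZ, and 1.69% to 2.31% in SKO LZ. Values are the deposited ERCC-calibrated counts divided by a median-of-ratios size factor of each library and are called rescaled values. Calls required an adjusted p under 0.05 from limma together with a change of more than 1 log2 unit in size. Nat10 itself was lower in SKO in all 3 stages (log2 fold change -0.87, -1.30 and -1.44, adjusted p = 0.0177, 0.000752 and 0.00014), although in SPG it did not pass the fold threshold, and the position of its reads relative to the deleted part was not analysed here. Markers of other cells differed between the genotypes. The summed rescaled value of 8 spermatid markers was 2090 to 5938 in WT SPG, 13110 to 21024 in WT PreL and 14057 to 18796 in WT LZ, against 17.8 to 34.9, 97.5 to 122.6 and 92.6 to 106.2 in SKO, and in SKO LZ Acrv1, Odf1 and Spem1 had 0 reads. The 9 late spermatocyte markers summed to 75933 and 169656 in the WT LZ libraries 2 and 3 and to 5944 to 6933 in SKO LZ. The 8 Leydig markers summed to 126.3 to 334.8 in WT SPG and 1315 to 4888 in SKO SPG, and the 6 peritubular myoid markers to 31.1 to 1046 and 5830 to 11199. Macrophage markers (7) summed to 176.8 to 283 in WT SPG and 1752 to 3158 in SKO SPG. In PreL and LZ the Leydig sums were 133.4 to 399.7 and 529.3 to 1120 in WT against 932 to 9252 and 2592 to 6766 in SKO. The 8 Sertoli markers in the table summed to 1591 to 1776 in WT PreL, to 15434, 18761 and 1442 in the SKO PreL libraries, to 24498 and 6611 in WT LZ and to 12580 to 16261 in SKO LZ. The 4 germ cell markers were present throughout, at 65615 to 115301. The part of these cells in the results was not tested, and in such bulk samples fewer cells of a type and less RNA per cell cannot be told apart.

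Compared per kilobase of transcript, the member with the highest level over all libraries was the accessory subunit Ndufa1 in complex I (55349 rescaled units per kb), Sdhb in complex II (10505), Uqcr11 in complex III (28113), Cox6c in complex IV (39386) and Atp5k in complex V (28688). The leader differed between groups: Ndufc1 was highest in complex I in WT SPG, SKO SPG and WT LZ, Uqcrb in complex III in SKO LZ (44059), Cox4i1 in complex IV in SKO SPG (26893), and the testis variant Cox8c (37512) stood beside Cox6c (37286) in WT LZ, with Atp5j highest in complex V in SKO SPG, SKO PreL and WT LZ. In WT SPG the summed level of the complex I members was 372749 to 407396 per kb, that of complex IV 191056 to 211035, and that of the 4 complex II members 17476 to 20508. The testis variants summed to 5782 to 6850 per kb in WT SPG and to 37857 and 86372 in WT LZ. They reached 12892 to 13777 in SKO LZ, below both WT LZ libraries. The 4 members not tested were Ndufs5, Cox8b, Cox4i2 and Cox6a2. Ndufs5 was listed at 0 in 16 of 17 libraries and with 1 read in the other; Cox8b, Cox4i2 and Cox6a2, the forms of heart, muscle or lung, had at most 5 reads in any library.

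**Figure D1:**
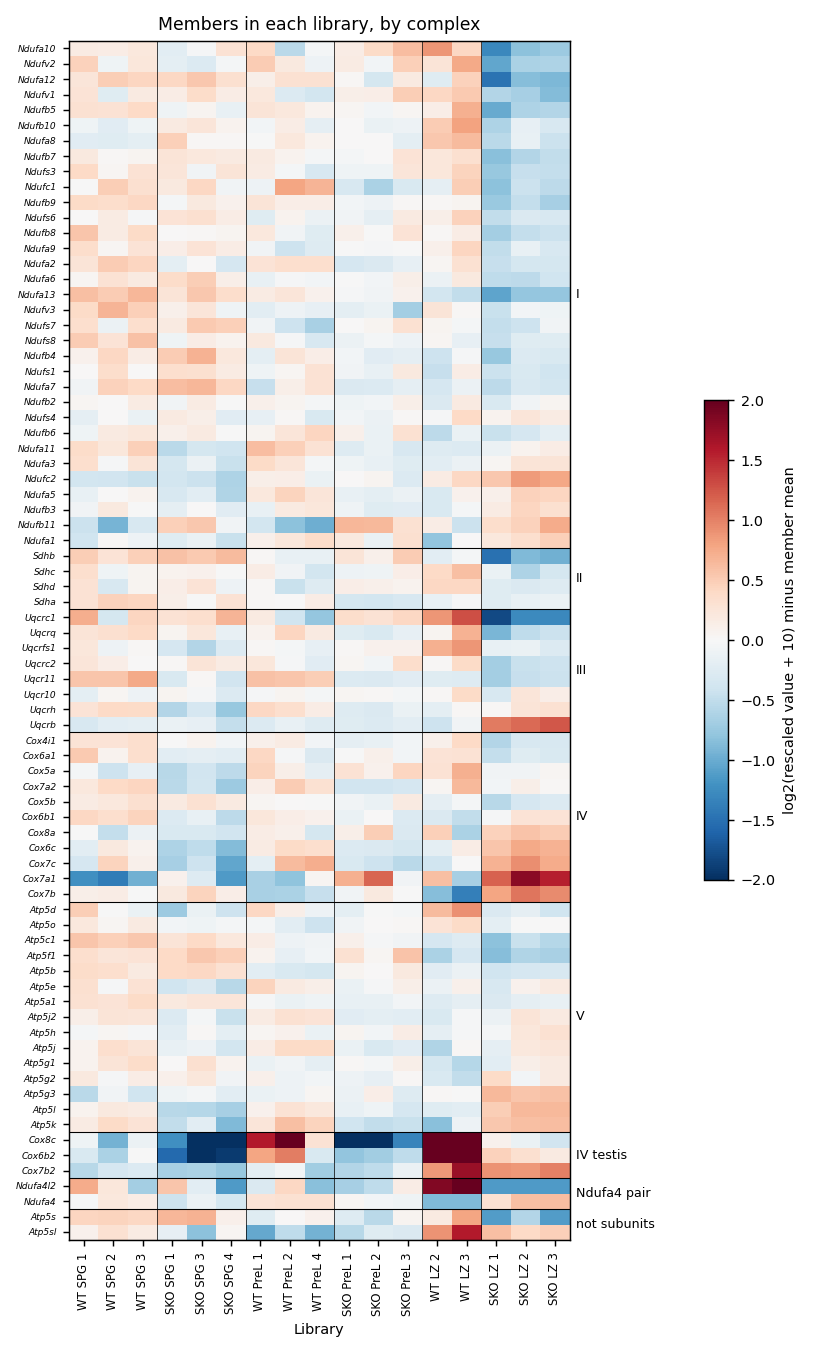
Each row is 1 tested member, grouped by complex and ordered within a complex by the SKO against WT change in LZ; each column is 1 library, and the color is log2(rescaled value + 10) minus the mean of that member (scale cut at -2 and 2). The 3 SKO LZ libraries stand apart in both directions, lower for most of complex I and higher for Uqcrb, Cox7b and Atp5k, and Cox8c and Cox6b2 are highest in the 2 WT LZ libraries.

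Of the testis variants of complex IV, Cox6b2 and Cox8c were lower in SKO at every stage, and Cox7b2 was not called at any. Cox8c, the testis form of the small subunit VIII, had rescaled values of 469, 254 and 457 in WT SPG and 206, 84.5 and 27.9 in SKO SPG (log2 fold change -2.08 ± 0.57 (SE), adjusted p = 0.0192). In PreL its values were 1517, 3835 and 612 in WT and 86.7, 115 and 193 in SKO (log2 fold change -3.51 ± 0.57 (SE), adjusted p = 0.000332). The groups did not overlap in either stage, and the WT PreL libraries themselves spanned a wide range. The late spermatocyte markers summed to 13747, 29760.1 and 10756 in WT PreL libraries 1, 2 and 4 and to 3918 to 4495 in SKO PreL, and their part in the PreL changes of Cox8c and Cox6b2 was not tested. In LZ Cox8c reached 10029 and 24332 in the WT libraries against 528, 453 and 380.3 in SKO (log2 fold change -5.09 ± 0.64 (SE), adjusted p = 2.12e-06), so each WT value was far above every SKO value. The Cox8c call in SPG was lost without WT SPG library 1 (-1.94), WT SPG library 3 (-1.96) or SKO SPG library 4 (-1.45), and with edgeR (-1.95), while those in PreL and LZ held under every library left out.

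Cox6b2, the sperm form of subunit VIb, which clasps the complex IV dimer, followed the same order. Its values were 439, 349.7 and 548 in WT SPG and 180.2, 109 and 138 in SKO SPG (log2 fold change -1.58 ± 0.34 (SE), adjusted p = 0.00349). It stood at 954, 1124 and 444 in WT PreL and 315, 334 and 384 in SKO PreL (log2 fold change -1.17 ± 0.34 (SE), adjusted p = 0.0198). The groups did not overlap in PreL, but the call was lost without WT PreL library 1 (-1.03) or 2 (-0.91) or SKO PreL library 1 (-1.10) or 2 (-1.15), with the deposited calibration (-0.45) and with length and GC trends removed (-0.90). In LZ Cox6b2 had 2906 and 7649 in WT and 757, 683 and 619 in SKO (log2 fold change -2.77 ± 0.38 (SE), adjusted p = 5.08e-06). Cox7b2, the testis form of subunit VIIb, had 5802 and 10522 in WT LZ and 5947, 5781 and 6411 in SKO LZ (log2 fold change -0.37 ± 0.22 (SE), adjusted p = 0.163), and the groups overlapped. Its differences in SPG and PreL were -0.30 (adjusted p = 0.327) and -0.09 (adjusted p = 0.791). Between the WT LZ libraries 2 and 3, Cox8c and Cox6b2 were both higher in library 3, as were the late spermatocyte markers given above, and without library 3 the LZ changes were still -4.46 and -2.09.

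**Figure D2:**
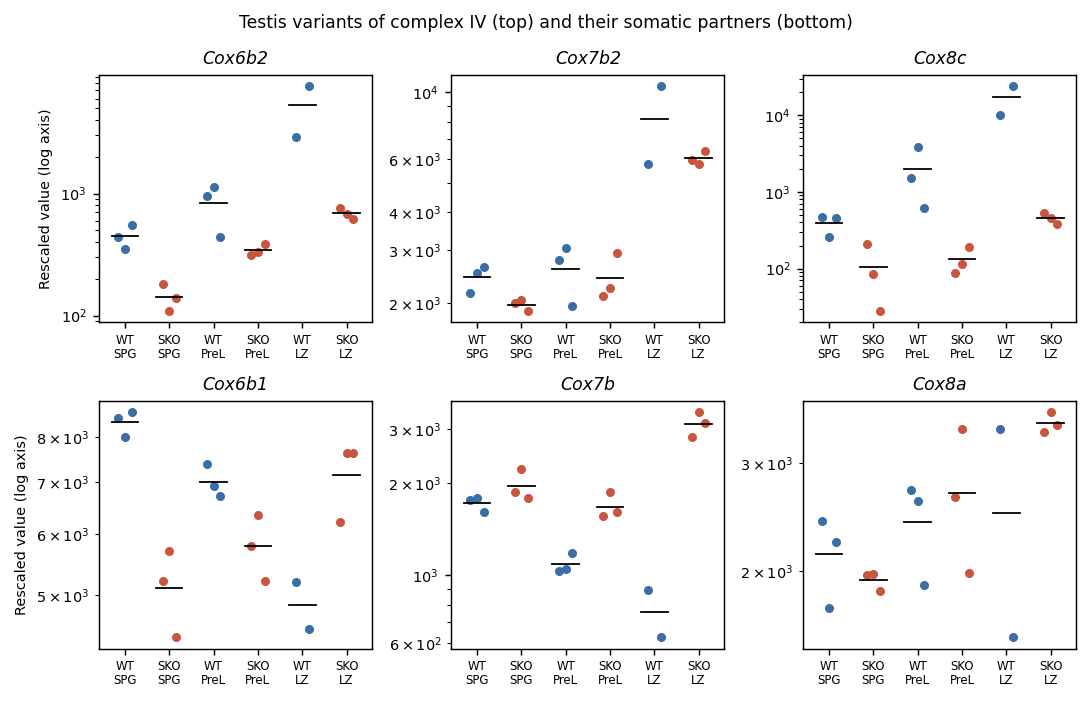
Rescaled value (log axis) of the 3 testis variants of complex IV (upper row) and the somatic partner of each (lower row), with 1 point per library, WT in blue and SKO in red, and the group mean as a black line. Cox8c is at 380.3 to 528.3 in the SKO LZ libraries and at 10029 and 24332 in the WT LZ libraries, whereas Cox7b is higher in SKO LZ than in WT LZ.

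The share of each testis variant in the sum with its somatic partner, per length, described the balance between the forms. Cox8c made up 17.8% ± 2.57 (SD, n = 3) of Cox8c plus Cox8a in WT SPG, 44% ± 18.3 (SD, n = 3) in WT PreL and 86.4% ± 12 (SD, n = 2) in WT LZ. In SKO the share was 5.94% ± 4.78 (SD, n = 3), 6.04% ± 3.8 (SD, n = 3) and 13.5% ± 2.14 (SD, n = 3), so the form that held most of the sum in WT LZ stayed the minor one in SKO LZ. Cox6b2 rose from 5.59% ± 0.99 (SD, n = 3) in WT SPG to 52% ± 19.1 (SD, n = 2) in WT LZ and was 9.79% ± 1.94 (SD, n = 3) in SKO LZ. Per length Cox7b2 was the main form in all 6 groups, at 72.2% ± 2.92 (SD, n = 3) in WT SPG, 94.6% ± 3.24 (SD, n = 2) in WT LZ and 78.1% ± 2.03 (SD, n = 3) in SKO LZ. This depends on the transcripts used, of 542 bases for Cox7b2 and 1001 for Cox7b. Of the reads themselves Cox7b2 held 51.7%, 47.8% and 51.2% in the SKO SPG libraries.

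Of the 79 tested members, few passed the fold threshold in SPG and PreL and more did in LZ, where more of all genes did too. In SPG 2 members were called lower (background over all genes, 3.76%) and 0 higher (background 5.15%), the 2 being Cox8c and Cox6b2. With limma 4 members were higher in SPG at an unadjusted p under 0.05, and edgeR and DESeq2 each called 0 higher. At the adjusted p alone, 19 were lower (background 7.24%) and 1 was higher (background 7.75%). In PreL 2 were called lower (background 6.03%), again Cox8c and Cox6b2, and 1, Ndufb11, higher (background 6.26%); at the adjusted p alone 17 were lower (background 10.8%) and 4 higher (background 9.16%). In LZ 12 were called lower (background 22.7%) and 5 higher (background 12.5%), and at the adjusted p alone 34 were lower (background 29.7%) and 17 higher (background 20.6%). The share called in LZ was thus below that of all genes in both directions once the fold threshold was set. The median log2 fold change of the members was -0.13 in SPG, -0.06 in PreL and -0.31 in LZ, against 0.00, 0.02 and -0.06 over all genes.

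These counts depended on scaling. Throughout, counts under an alternative or at an unadjusted p stand without the share of all genes, so they are not read against a background. With the ERCC-calibrated values as deposited, the median of all genes in PreL shifted by 0.69 on the log2 scale, and 1 member was called lower and 12 higher; in SPG it shifted by -0.26, with 10 lower and 0 higher. With reads per library total in LZ, all genes shifted by -0.37, with 29 members lower and 2 higher. Relative to the median of all genes, the members other than the testis variants lay at -0.22 in LZ with the size factors used here, at -0.22 with the deposited calibration and at -0.24 with reads per library total. Each of these scalings multiplies a library by 1 constant, which nearly cancels in this difference, so their likeness was fixed beforehand and is no support. When trends with transcript length and GC content were removed from each library, the difference became 0.24, and 7 members were called lower and 17 higher in LZ. The direction of the median thus flipped with that removal. The 9 members Cox8c, Cox6b2, Ndufa4l2, Uqcrc1, Ndufa10, Ndufv2 and Atp5s (lower) and Cox7b and Ndufa4 (higher) were called in LZ under every alternative that tested them. Ndufa4l2 was tested only through its WT LZ reads and had too few reads to be tested without WT LZ library 3 or under a stricter filter. Its place among these 9, and among the members called lower in LZ, is therefore no support. Without WT LZ library 3, 7 members were called lower in LZ, and without WT LZ library 2, 19 were.

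**Figure D3:**
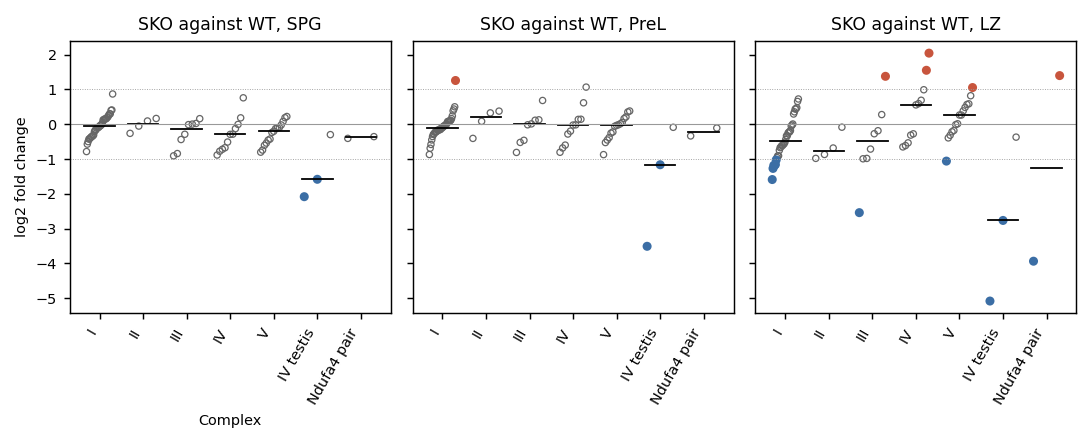
Log2 fold change of SKO against WT for each tested member, by complex, in SPG, PreL and LZ; filled points passed the adjusted p and the fold threshold (blue lower, red higher), open points did not, black lines are medians, and dotted lines mark the fold threshold. Outside the testis variants, the called points lie in LZ, apart from Ndufb11 in PreL.

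Complex I, which oxidises NADH, had 6 of 34 tested members called lower (background 22.7%) and 0 higher (background 12.5%) in LZ by limma. The complex I median was -0.48, which became 0.08 with length and GC trends removed (2 called lower and 3 higher). edgeR and DESeq2 also called 0 higher, and 7 were higher at an unadjusted p under 0.05. At the adjusted p alone 18 were lower (background 29.7%) and 5 higher (background 20.6%). The largest fall was that of Ndufa10, an accessory subunit of the membrane arm. Its rescaled values in LZ were 3343 and 2408 in WT and 735, 1023 and 1087 in SKO (log2 fold change -1.59 ± 0.24 (SE), adjusted p = 1.71e-05), with no overlap, while in SPG (-0.16) and PreL (0.44) the groups overlapped. Ndufv1, which binds NADH and the flavin, had 4499.6 and 4851 in WT LZ and 2233, 2110.1 and 1839 in SKO LZ (log2 fold change -1.18 ± 0.19 (SE), adjusted p = 2.71e-05). Ndufv2, its partner with an iron-sulfur cluster, had 14891 and 21076 and 6072, 8044 and 8087 (log2 fold change -1.27 ± 0.21 (SE), adjusted p = 4.53e-05). Both sets of SKO libraries lay below both WT libraries. The other called members were the accessory subunits Ndufa12 (-1.18), Ndufb5 (-1.16) and Ndufb10 (-1.03). Without WT LZ library 3 these 3 fell short of the fold threshold (-0.85, -0.89 and -0.90), as did Ndufa12 and Ndufb10 without SKO LZ library 1 (-0.98 and -0.89). With length and GC trends removed, Ndufa10 (-1.24) and Ndufv2 (-1.03) were still called, while Ndufv1 (-0.59), Ndufa12 (-0.56), Ndufb5 (-0.60) and Ndufb10 (-0.33) were not. In Ndufa12, 17.7% of 100-base windows also occur in another gene, and exons of Ndufb5 overlap Mrpl47, so their reads are less certain.

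Complex I also held the 1 member called higher before LZ. Ndufb11, an X-linked accessory subunit of the membrane arm, had 982, 709.7 and 638 in WT PreL and 2018, 1982 and 1572 in SKO PreL (log2 fold change 1.26 ± 0.22 (SE), adjusted p = 0.000522). The groups did not overlap, and the call held under every alternative. In SPG its values were 939.6, 662 and 1012 in WT and 1764, 1837 and 1208 in SKO (log2 fold change 0.87 ± 0.22 (SE), adjusted p = 0.011), under the fold threshold. In LZ they were 1407 and 942 and 1612, 1756 and 2127 (log2 fold change 0.66 ± 0.24 (SE), adjusted p = 0.0309). Its exons overlap Rbm10 over 117 bases.

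Complex II, succinate dehydrogenase, is the one complex with no mitochondrially encoded subunit, and it also belongs to the tricarboxylic acid cycle. In LZ 0 of its 4 members were called, and all 4 lay below 0, of which Sdha was above 0 with edgeR. With the deposited calibration 2 were called lower, and with reads per library total 3. With limma 3, namely Sdhb, Sdhc and Sdhd, were lower at an unadjusted p under 0.05 and also at the adjusted p (background 29.7%). Both edgeR and DESeq2 called 0. Sdhb, the iron-sulfur subunit, had 9594 and 10851 in WT LZ and 3959, 6039.9 and 5751 in SKO LZ (log2 fold change -0.98 ± 0.17 (SE), adjusted p = 5.87e-05), just under the fold threshold and with no overlap. The membrane anchors Sdhc (log2 fold change -0.87 ± 0.17 (SE), adjusted p = 0.000322) and Sdhd (log2 fold change -0.68 ± 0.17 (SE), adjusted p = 0.0021) were also lower. Sdha, the flavoprotein, had 4971 and 5395 in WT and 4667, 4971 and 5019 in SKO (log2 fold change -0.08 ± 0.12 (SE), adjusted p = 0.593), and the groups overlapped. In PreL Sdha was lower at the adjusted p (5622, 5517 and 6094 in WT, 4297, 4254 and 4430.0 in SKO; log2 fold change -0.41 ± 0.11 (SE), adjusted p = 0.0126), and Sdhb was at 0.38 (adjusted p = 0.0792). With length and GC trends removed, the LZ change of Sdhc was -0.92, of Sdhb -0.26 and of Sdhd -0.11, and those of Sdhb and Sdhd did not pass.

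Complex III, which passes electrons from ubiquinol to cytochrome c, held both the largest fall outside the testis variants and Ndufa4l2, and one of the largest rises, in LZ. Uqcrc1, a core subunit facing the matrix (chr9:108936633-108949623), had 8768 and 11606 in WT LZ and 1351, 1954 and 1935 in SKO LZ (log2 fold change -2.54 ± 0.27 (SE), adjusted p = 2.86e-07). In PreL the order was the other way, with 5366, 3589 and 2749.6 in WT and 6047, 5787 and 6295 in SKO (log2 fold change 0.68 ± 0.24 (SE), adjusted p = 0.0545), which did not pass the test. The other core members taken by the name rule, Uqcrc2 (log2 fold change -0.71 ± 0.16 (SE), adjusted p = 0.00113) and Uqcrfs1, the Rieske iron-sulfur protein (log2 fold change -0.98 ± 0.14 (SE), adjusted p = 7.03e-06), were lower at the adjusted p in LZ. The rule left out Cyc1, cytochrome c1, also a core subunit, which was not called in LZ with the fold threshold. Exons of Uqcrc2 overlap Pdzd9 over 504 bases. Uqcrb, a small subunit that helps to form the ubiquinone site, had 8003 and 10212 in WT LZ and 21909.7, 23575 and 25230.1 in SKO LZ (log2 fold change 1.38 ± 0.14 (SE), adjusted p = 1.03e-07). Every SKO value of Uqcrb was above every WT value, whereas in SPG and PreL its changes were -0.01 and -0.02; with reads per library total the LZ change was 0.99, short of the threshold, and 15.8% of its 100-base windows occur in another gene. The small subunit Uqcr11 was lower in SKO SPG (log2 fold change -0.84 ± 0.12 (SE), adjusted p = 0.000135) and in SKO PreL (log2 fold change -0.81 ± 0.12 (SE), adjusted p = 0.000136) and not past the test in LZ (-0.27, adjusted p = 0.0996). The hinge protein Uqcrh was lower in SPG (10296, 11269 and 11119 in WT, 5682, 6790.2 and 5048 in SKO; log2 fold change -0.91 ± 0.13 (SE), adjusted p = 0.000115). Neither reached the fold threshold, and with length and GC trends removed Uqcr11 in SPG (-0.33) did not pass.

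**Figure D4:**
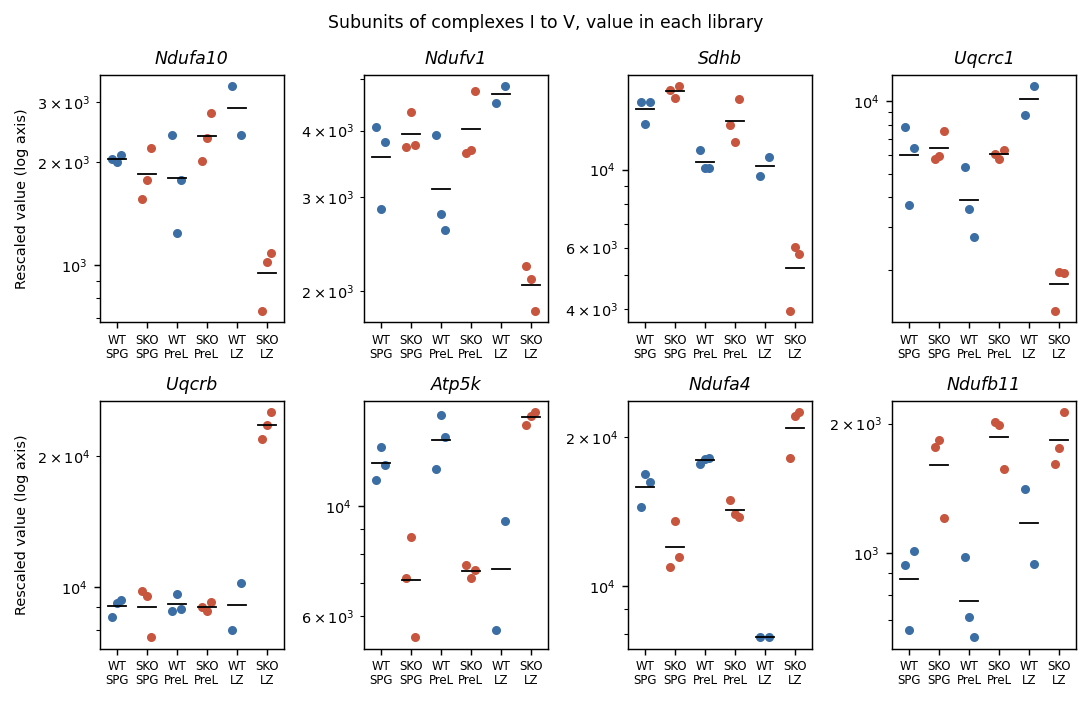
Rescaled value (log axis) of 8 members, with 1 point per library, WT in blue and SKO in red, and the group mean as a black line. In LZ the SKO libraries lie below both WT libraries for Ndufa10, Ndufv1, Sdhb and Uqcrc1 and above both for Uqcrb, Atp5k, Ndufa4 and Ndufb11.

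Complex IV, cytochrome c oxidase, had a median above 0 in LZ when the testis variants were left out, with 6 members above 0 and 5 below. Its 11 tested members had a median of 0.56 in LZ (0.16 to 1.10 under the other scalings). By limma 2 were called higher (background 12.5%) and 0 lower (background 22.7%). edgeR and DESeq2 also called 0 lower, and 4 were lower at an unadjusted p under 0.05. At the adjusted p 5 were higher (background 20.6%) and 3 lower (background 29.7%). Cox7b, X-linked and the somatic partner of Cox7b2 (chrX:106015700-106022450), had 893 and 626 in WT LZ and 2827, 3413 and 3147 in SKO LZ (log2 fold change 2.05 ± 0.17 (SE), adjusted p = 8.63e-09). In PreL it was also higher in SKO, with 1031, 1049.6 and 1180.3 in WT and 1554, 1863 and 1609 in SKO (log2 fold change 0.62 ± 0.15 (SE), adjusted p = 0.00709), and in SPG the groups overlapped (0.18, adjusted p = 0.455). Cox7a1, the heart and muscle form of subunit VIIa, had 399 and 161 in WT LZ and 605, 942 and 789.9 in SKO LZ (log2 fold change 1.55 ± 0.44 (SE), adjusted p = 0.00645); without WT LZ library 3 it was 0.91 and was not called. Its differences in SPG (log2 fold change 0.76 ± 0.40 (SE), adjusted p = 0.216) and PreL (log2 fold change 1.07 ± 0.40 (SE), adjusted p = 0.0643) did not pass. Cox7a2, the widely expressed form, had 19271, 21938 and 22422 in WT SPG and 11513, 12980.1 and 10053 in SKO SPG (log2 fold change -0.89 ± 0.15 (SE), adjusted p = 0.000546), and in PreL 18231, 23751 and 20522 and 12791, 12739 and 13180.4 (log2 fold change -0.68 ± 0.15 (SE), adjusted p = 0.00325). The groups did not overlap in either stage, and in LZ they did (-0.31, adjusted p = 0.125).

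The remaining somatic forms of complex IV went in both directions. Cox6b1, the partner of Cox6b2, had 8469, 8004 and 8628 in WT SPG and 5213, 5692 and 4403 in SKO SPG (log2 fold change -0.72 ± 0.13 (SE), adjusted p = 0.000782). In LZ it was higher in SKO, at 5196 and 4514 in WT and 6214, 7626 and 7639.6 in SKO (log2 fold change 0.56 ± 0.14 (SE), adjusted p = 0.00257), and in PreL it did not pass (-0.28, adjusted p = 0.124). Cox6c, the most abundant member of the complex per length over all libraries, was lower in SKO SPG (log2 fold change -0.68 ± 0.14 (SE), adjusted p = 0.00245) and PreL (log2 fold change -0.60 ± 0.14 (SE), adjusted p = 0.00448) and higher in SKO LZ (log2 fold change 0.69 ± 0.15 (SE), adjusted p = 0.000845). Cox4i1, a regulatory subunit, was lower in LZ (log2 fold change -0.65 ± 0.13 (SE), adjusted p = 0.000424), as was Cox6a1 (log2 fold change -0.61 ± 0.17 (SE), adjusted p = 0.00449). Cox6a1 was also lower in SPG (log2 fold change -0.51 ± 0.15 (SE), adjusted p = 0.0261). Cox8a, the partner of Cox8c, did not pass in any stage (-0.13, 0.14 and 0.59; adjusted p = 0.77, 0.712 and 0.0616). With length and GC trends removed, the LZ values of Cox4i1 and Cox6a1 were 0.04 and 0.01, those of Cox6c in SPG and PreL -0.27 and -0.31, and that of Cox6a1 in SPG -0.11, none of which passed.

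The pair Ndufa4 and Ndufa4l2 split. Ndufa4, a subunit of complex IV despite its name, had 7881 and 7888 in WT LZ and 18136, 22124 and 22501 in SKO LZ (log2 fold change 1.40 ± 0.13 (SE), adjusted p = 6.02e-08). In SPG it was lower in SKO, at 14433, 16885 and 16241 in WT and 10950.5, 13518 and 11479.8 in SKO (log2 fold change -0.41 ± 0.12 (SE), adjusted p = 0.027), a difference that became -0.11 and did not pass with length and GC trends removed, and in PreL it was at -0.34 (adjusted p = 0.0528). Ndufa4l2, a paralogue known for its induction by hypoxia, had 49 and 156 reads in the WT LZ libraries and 0 in each SKO LZ library, at least 10.9-fold lower than the WT mean, and at least 4.22-fold lower than WT LZ library 2 alone, against a floor of 3 reads per library (adjusted p = 5.06e-05). Before LZ Ndufa4l2 had 0 to 17 reads per library, so only its WT LZ reads lifted it over the filter of a mean of 10 reads. Its adjusted p is therefore no support apart from those reads. Counting intervals and floors cover counting error only, since PCR copies without molecular identifiers are not independent molecules.

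Complex V, the ATP synthase, had 1 member called lower (background 22.7%) and 1 higher (background 12.5%) in LZ. Its median was 0.27 and turned to -0.13 with reads per library total. Atp5d, the delta subunit of the F1 part, had 2717 and 3313 in WT LZ and 1432, 1547 and 1329 in SKO LZ (log2 fold change -1.06 ± 0.20 (SE), adjusted p = 0.000217). Without WT LZ library 3 this was -0.93, and with length and GC trends removed -0.37, neither of which was called. Atp5k, the small subunit e of the membrane part, had 5629 and 9319 in WT LZ and 14574, 15199 and 15455 in SKO LZ (log2 fold change 1.06 ± 0.19 (SE), adjusted p = 0.000126), but without WT LZ library 2 (0.69), with the deposited calibration (0.91) and with reads per library total (0.66) it was not called. Before LZ Atp5k was lower in SKO, with 11297, 13142 and 12084 in WT SPG and 7149, 8673 and 5433 in SKO SPG (log2 fold change -0.80 ± 0.17 (SE), adjusted p = 0.00367). In PreL it had 11840.0, 15239 and 13746 and 7601, 7140.5 and 7414 (log2 fold change -0.87 ± 0.17 (SE), adjusted p = 0.0015), so its groups were apart in all 3 stages and the order turned in LZ. With length and GC trends removed the changes were -0.26, -0.54 and 1.52, and the first no longer passed the test. In LZ 7040 of all 13530 tested genes lay below 0 and 6490 above. Of the 5 subunits of F1 (alpha, beta, gamma, delta and epsilon), 1 was lower at the adjusted p in LZ (background 29.7%) and 4 lay below 0. Of the 10 of the peripheral stalk and membrane part 5 were higher at the adjusted p (background 20.6%) and 8 lay above 0. The 3 genes for subunit c, Atp5g1 (0.48), Atp5g2 (0.57) and Atp5g3 (0.59), and Atp5l (0.82) were among these, but in Atp5g2, Atp5l and Atp5g1 86.4%, 61.4% and 57.3% of 100-base windows also occur in another gene. Atp5s, a coupling factor that is not a subunit, was lower in LZ (log2 fold change -1.43 ± 0.23 (SE), adjusted p = 3.36e-05).

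The 3 X-linked members were all higher in SKO LZ. Besides Cox7b and Ndufb11, Ndufa1 had 13159.8 and 22683 in WT LZ and 26136, 28489 and 31440.4 in SKO LZ (log2 fold change 0.73 ± 0.20 (SE), adjusted p = 0.00497). The median over all 542 tested X-linked genes was 0.70 in LZ, 0.25 in PreL and 0.14 in SPG, and 130 of them were called higher and 30 lower in LZ. From PreL to LZ in WT the median of X-linked genes fell by 0.40 on the log2 scale, and Cox7b (-0.53, adjusted p = 0.0152) and Ndufa1 (-0.62, adjusted p = 0.0167) were lower, whereas Ndufb11 was at 0.59 (adjusted p = 0.0576).

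Between stages, Cox8c, Cox6b2 and Cox7b2 rose from PreL to LZ in WT. From SPG to PreL in WT 1 member was called higher (background 3.57%) and 1 lower (background 1.76%). These were Cox8c (1.98, adjusted p = 0.034) and Atp5sl (-1.01, adjusted p = 0.0399), while Cox6b2 was at 0.82 (adjusted p = 0.12). The Cox8c call was lost without WT SPG library 1 (2.13), 2 (1.70) or 3 (2.11) or WT PreL library 1 (1.99) or 2 (1.33), and Atp5sl lost its call without any one WT library of these stages, SKO PreL library 1 or SKO LZ library 2 or 3 (-1.16 to -0.91). From PreL to LZ in WT 6 were called higher (background 22.3%) and 1 lower (background 6.65%). The 6 were Cox8c (log2 fold change 3.34 ± 0.64 (SE), adjusted p = 0.000436), Ndufa4l2, Cox6b2 (log2 fold change 2.58 ± 0.38 (SE), adjusted p = 3.98e-05), Atp5sl, Cox7b2 (log2 fold change 1.61 ± 0.22 (SE), adjusted p = 2.14e-05) and Uqcrc1 (log2 fold change 1.42 ± 0.27 (SE), adjusted p = 0.000435), and the 1 was Ndufa4 (log2 fold change -1.19 ± 0.13 (SE), adjusted p = 7.23e-06). Ndufa4l2 was tested here only because of its WT LZ reads. With length and GC trends removed Uqcrc1 was at 0.89 and not called. With the deposited calibration, under which all genes shifted by 1.59 in this comparison, Ndufa4 turned to 0.50, 75 members were called higher and 0 lower, so the direction for a typical member is set by the scaling.

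In SKO 1 member, Cox6b2, was called higher from SPG to PreL (background 3.06%) and 0 lower by limma (background 0.939%). edgeR and DESeq2 also called 0 lower, and 13 were lower at an unadjusted p under 0.05. The Cox6b2 call (1.24) was lost without SKO SPG library 3 (1.07) or 4 (1.23) or any SKO PreL library (1.16 to 1.30). From PreL to LZ in SKO 5 were called higher (background 8.22%) and 5 lower (background 5.05%). Those higher were Cox8c (1.77, adjusted p = 0.0273), Uqcrb (1.38, adjusted p = 1.15e-07), Cox7b2 (1.33, adjusted p = 2.97e-05), Cox7c (1.21) and Atp5k (1.03). Those lower were Uqcrc1 (-1.80, adjusted p = 1.36e-05), Sdhb (-1.40, adjusted p = 7.44e-07), Ndufa10 (-1.33, adjusted p = 9.81e-05), Ndufa12 (-1.02) and Atp5f1 (just past the fold threshold). The Cox8c rise lost its call without SKO PreL library 1 (1.52) or 2 (1.71) or SKO LZ library 1 (1.65) or 2 (1.76), Ndufa12 without SKO PreL library 1 (-0.99) or 3 (-0.91) or SKO LZ library 1 (-0.82), and Atp5f1 without SKO PreL library 3 (-0.87) or SKO LZ library 1 (-0.93). None of these 10 calls held under every alternative. With the deposited calibration 27 members were called higher and 0 lower here, and with reads per library total 0 higher and 16 lower. Uqcrc1 and Ndufa10 thus had stage differences of opposite sign in the genotypes, with PreL to LZ values of 1.42 and 0.70 in WT and -1.80 and -1.33 in SKO.

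The genotype effect was compared directly between PreL and LZ by an interaction term. It was lower in LZ for 32 members (background 23.1%) and higher for 20 (background 15.1%) at the adjusted p. In complex I 16 were lower and 6 higher, in complex II 3 and 0, in complex III 3 and 3, in complex IV 2 and 4, and in complex V 4 and 6. All 3 core members of complex III that the name rule took, which leaves out Cyc1, were lower. The differences were -3.23 ± 0.37 (SE) for Uqcrc1, -2.03 ± 0.32 for Ndufa10, 1.93 ± 0.26 for Atp5k and 1.74 ± 0.18 for Ndufa4. The loss of Cox8c in LZ was not shown to differ from that in PreL (log2 fold change -1.58 ± 0.86 (SE), adjusted p = 0.158). Without WT LZ library 3, 20 members were lower, with length and GC trends removed 12 were lower and 24 higher, and with the deposited calibration, which shifted all genes by -0.81 in this comparison, 53 were lower and 3 higher.

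The log2 fold change of a member, with its sign, varied with the length of its transcript. Member transcripts are short, with a median of 758 bases against 2746 over all genes tested. Over the 79 members the Spearman correlation between log2 fold change and length was 0.30 in SPG, 0.43 in PreL and -0.41 in LZ; these points share their libraries and are a description. Over 13383 genes it was 0.10, 0.09 and 0.21. The 25 members under 600 bases, a limit chosen after their values were seen, had a median of -0.50 in SPG and -0.01 in LZ, and the 54 longer ones -0.10 and -0.42. All 347 genes of that length had medians of -0.32 in SPG and -0.01 in LZ. Of the 19 members lower at the adjusted p in SPG, the small subunits Uqcrh, Uqcr11, Atp5k, Ndufa11, Cox7c, Atp5l and Cox6c lay between -0.91 and -0.68, and after removal of the length and GC trends 8 members were lower and 13 higher at the adjusted p. The part of length in these differences was not tested beyond that.

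**Figure D5:**
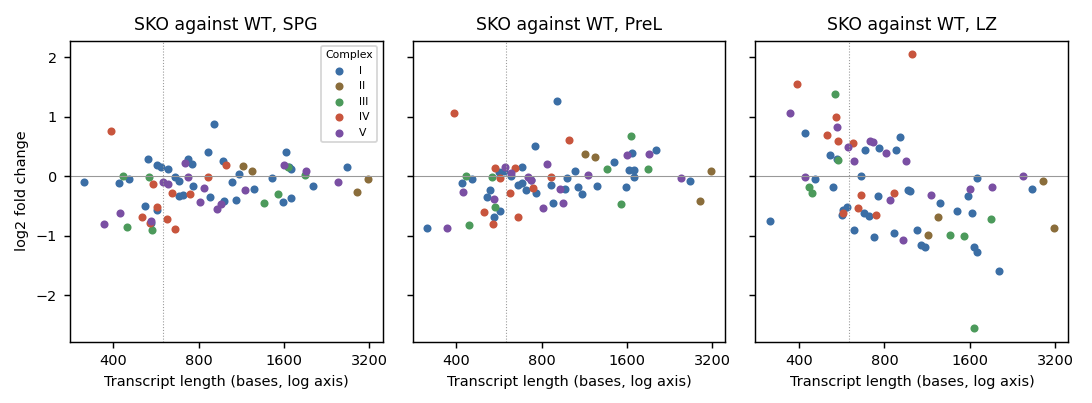
Log2 fold change of SKO against WT for each tested member of complexes I to V, without the testis variants, against the length of its transcript in bases (log axis), in SPG, PreL and LZ, colored by complex; the dotted line marks 600 bases. Short members lie lowest in SPG and PreL, and in LZ the highest values belong mostly to short members.

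Other genes of mitochondrial energy metabolism were read from lists written for this work. Of 43 tested assembly factors of complexes I to V, 6 were called lower and 4 higher in LZ, 1 lower in PreL and 0 in SPG. Ndufaf3, an assembly factor of complex I, fell in LZ (log2 fold change -4.69 ± 0.33 (SE), adjusted p = 1.41e-09) and in PreL (-1.06, adjusted p = 0.0179), and Timmdc1, another (listed as 4930455C21Rik), rose in LZ (2.30, adjusted p = 8.29e-07). Of the 48 large subunit proteins of the mitochondrial ribosome, 7 were lower and 6 higher in LZ and 0 were called in SPG or PreL; Mrpl39 (-1.98) fell and Mrpl19 (3.29) rose. Of 22 genes of the tricarboxylic acid cycle and pyruvate dehydrogenase, 5 were lower and 1 higher in LZ. Pdha2, the testis form of the E1 alpha subunit, was lower (-2.47, adjusted p = 4.37e-06), and Ogdh was higher (3.61, adjusted p = 2.71e-10). Before LZ 1 gene of this list was called, Idh2, which was higher in SPG (2.51, adjusted p = 0.00823) and PreL (1.84, adjusted p = 0.0364). Its WT means there were low, at 25.7 and 20.6 rescaled units. Among 14 further respiratory proteins and carriers, Cyct, the testis cytochrome c, was lower in LZ (-1.48, adjusted p = 8.73e-05) and the somatic Cycs higher (1.31, adjusted p = 9.23e-07), as was Usmg5, a small subunit of complex V (2.10). Cyct also serves as a late spermatocyte marker. In PreL 2 of these 14 were called higher (background 6.26%) and 0 lower, and in SPG 0 were called. The 2 were the carriers Slc25a5 (2.37, adjusted p = 0.000878) and Slc25a4 (1.86, adjusted p = 0.0163). Of 15 regulators of mitochondrial biogenesis 1 was lower and 4 higher in LZ, led by Twnk (listed as Peo1, 3.02). These counts stand beside backgrounds of 22.7% lower and 12.5% higher in LZ.

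Of a list of 8 genes of glycolysis in the testis, which also holds Pgam2, the muscle form of its enzyme, and the lactate transporter Slc16a3, all 8 were called lower in SKO LZ (background 22.7%), 6 in PreL (background 6.03%) and 4 in SPG (background 3.76%), and Ldhc and Pgk2 of this list also serve as late spermatocyte markers. Ldhc fell by 8.58 on the log2 scale in LZ (adjusted p = 3.89e-06). Of the 16 tested genes of the somatic forms, 5 were lower and 4 higher in LZ, 2 lower and 1 higher in PreL and 1 higher in SPG, against backgrounds of 12.5%, 6.26% and 5.15% higher. The lists were not tested against each other. Ldha fell in LZ (-4.89, adjusted p = 2.86e-07), and Gpi1 rose (2.42, adjusted p = 2.98e-09).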

How the data were processed

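RNA of sorted cells was copied with the Smart-seq2 method, and the authors mapped trimmed reads to mm10, kept unique alignments and summed them by gene in HTSeq 0.11.2. The deposited signal is that count multiplied, within a library, by 1 constant set by ERCC RNA and the number of cells. In 1 WT SPG library that factor was 1, so its values are the counts themselves. TopHat2 2.1.1 and Cufflinks 2.2.1 are named in the submitters' processing notes. The table holds 23282 symbols and 0 columns of other samples. Whole reads were recovered within 0.01 reads.

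Each library was rescaled by its median-of-ratios size factor among the 17. Genes averaging 10 or more reads entered the test as log2(value + 10), which understates changes of low genes, with limma 3.58.1 (R 4.3.3, mean-variance trend, all libraries in 1 fit, Benjamini-Hochberg adjustment). edgeR 4.0.16 and DESeq2 1.42.0, other scalings, pseudocounts of 1 and 50, other filters, a replicate block and each library left out were alternatives; removal of trends with length and GC content (lowess) was added after seeing the data. Members, lists and role groups were chosen with earlier results of these data known. Positions and lengths came from GENCODE M21 (GRCm38), which matched all 83 members. Named members were the testis and tissue forms, complex II, X-linked members, and in each complex the largest called changes and the highest level; others named were chosen after their values were seen. In 14 members over 10% of 100-base windows occur in another gene, and the libraries did not keep strand. Values of 1 member of complex I are not reported here. No library pair agreed within counting noise. The fit was tested on simulated data.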

Additional observations from a re-analysis of the deposited data

Results flagged for a closer look

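For 18 of the named members the genotype effect in LZ differed from that in PreL in the interaction test at an adjusted p under 0.05 (limma). Values are the LZ effect minus the PreL effect on the log2 scale, so that a negative value is an effect lower in LZ. In complex I the difference was -2.03 for Ndufa10 and 0.83 for Ndufa1. In complex II it was -1.36 for Sdhb, -0.95 for Sdhc and -1.01 for Sdhd. In complex III it was -3.23 for Uqcrc1, 1.39 for Uqcrb, 0.80 for Uqcrh and 0.54 for Uqcr11. In complex IV Cox6c had 1.29, Cox7b 1.43, Cox6b1 0.84, Cox6a1 -0.59 and the testis variant Cox6b2 -1.60, and in complex V Atp5k had 1.93 and Atp5d -0.84. Ndufa4 had 1.74 and Ndufa4l2 -3.83.

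With WT LZ library 3 left out, Cox6b2 (-0.92), Atp5d (-0.71) and Uqcr11 (0.52) no longer passed. Atp5d also failed without WT PreL library 4 (-0.72), Uqcr11 without SKO PreL library 1 (0.53) or SKO LZ library 3 (0.49), and Ndufa1 without WT LZ library 2 (0.44) or SKO PreL library 2 (0.70). Cox6a1 (-0.60 to -0.43) did not pass when any one library was left out other than WT SPG 1 or 2, WT PreL 1, SKO PreL 3 or SKO LZ 2. With the deposited calibration Cox6c (0.42), Cox7b (0.57) and Uqcrb (0.52) did not pass, nor did Cox6b1, Uqcrh, Uqcr11 and Ndufa1, whose values turned sign. With reads per library total Cox6b1 (0.37), Ndufa1 (0.37), Uqcrh (0.33) and Uqcr11 (0.071) did not pass, and with length and GC trends removed Sdhd (-0.48), Atp5d (-0.32), Cox6a1 (-0.24) and Cox6b2 (-1.24) did not. Atp5d and Cox6a1 also failed with edgeR (-0.68 and -0.41) and with the replicate block (-0.79 and -0.55), and Cox6a1 with TMM scaling, a pseudocount of 1 and no filter (-0.59 to -0.55). The value of Ndufa4l2, with 0 reads in SKO LZ, depends on the pseudocount. Ndufa4l2 passed the read filter only through its WT LZ reads and was not tested without WT LZ library 3. The summed late spermatocyte markers differed between the WT LZ libraries 2 and 3, at 75933 and 169656, and their part in these differences was not tested. Groups here held at most 3 libraries, so no library was tested as standing apart.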

How the results depend on the processing

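Counts of members called lower or higher moved by over 1.5 times under these alternatives. They stand without the share of all genes called under the same alternative. With the deposited calibration, SKO against WT gave 10 lower in SPG, 1 lower and 12 higher in PreL, and 19 lower in LZ; PreL against SPG gave 0 lower in WT and 42 higher in SKO; LZ against PreL gave 75 higher and 0 lower in WT and 27 higher and 0 lower in SKO; and 53 genotype effects were lower and 3 higher in LZ than in PreL. Under it the interaction values of Cox6b1 (-0.034), Uqcrh (-0.071), Uqcr11 (-0.34) and Ndufa1 (-0.039) turned sign and did not pass. With reads per library total, LZ had 29 lower and 2 higher, LZ against PreL in SKO 16 lower and 0 higher, and 7 effects were higher in LZ. With length and GC trends removed, SPG had 2 higher, PreL 1 lower and 2 higher, LZ 7 lower and 17 higher, LZ against PreL 6 lower in WT and 3 in SKO, and 12 effects were lower. Without the fold threshold, SPG had 19 lower and 1 higher, PreL 17 and 4, LZ 34 and 17, PreL against SPG 12 and 2 in WT and 6 and 4 in SKO, and LZ against PreL 16 and 17 in WT and 20 and 16 in SKO. TMM, edgeR, the fit of only the libraries compared and the replicate block each gave 2 lower for LZ against PreL in WT. The replicate block also gave 1 higher in SPG, 0 lower for PreL against SPG in WT and 0 higher in SKO. Numbers were not taken as pairs, since the labels do not say what they share and same-numbered libraries of a stage correlated at -0.05 to 0.11 (6 pairs) and those of any stage or genotype at -0.19 to 0.42 (31 pairs). edgeR gave 1 lower in SPG, and DESeq2 2 higher in PreL. No filter gave 1 lower in SPG and 0 higher for PreL against SPG in both genotypes and 0 lower in WT. A pseudocount of 1 gave 0 higher there in WT, and a pseudocount of 50 and the fit of only the libraries compared 0 lower. The causes were not tested.

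With 1 library left out, counts of lower and higher members ranged from 1 to 3 and 0 to 1 in SPG, 1 to 3 and 1 to 2 in PreL, and 7 to 19 and 5 to 6 in LZ. PreL against SPG gave 0 to 1 and 0 to 2 in WT and 0 to 0 and 0 to 1 in SKO, LZ against PreL 1 to 3 and 5 to 6 in WT and 3 to 7 and 4 to 5 in SKO, and the interaction 20 to 34 and 18 to 20. Where 1 WT LZ library remained, it was assumed to vary like the other groups. The 2 WT LZ libraries and the lower depth of SKO LZ limit the precision of each LZ value.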
